A study of Mus musculus with 24 samples.

Results

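Transcript isoforms were compared between striatal RNA libraries of prenatally stressed and unstressed mice, using 12 of the 24 samples of the series, namely all 12 RNA libraries: 6 stressed and 6 unstressed. The members were chosen by their labels and not by a measured value. In each library RSEM had assigned reads to 95451 annotated transcripts of 37289 genes, and each transcript was described by its level and by its share, which is its TPM (a level per length, scaled to the library total) as a percentage of the summed TPM of its gene. The stressed libraries came from 3 mice heterozygous (het) for Cntnap2 and 3 wild-type mice whose mothers went through variable stress over 7 days of pregnancy, begun on embryonic day 12.5. The unstressed libraries came from 3 het and 3 wild-type mice whose mothers were not stressed. Cntnap2 encodes Caspr2, a neuronal adhesion protein, and genotype was balanced over the groups and kept as a covariate. All mice were female C57BL/6, were ear-tagged on postnatal day 12 and weaned on postnatal day 18, and were killed 2 hours after lights on, and the striatum was taken from frozen brains by micropunch, per the labels. Each library is 1 mouse. The labels do not give the litter, so mice of 1 litter may share a group, and the sources used here state no age at death.

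Most mammalian genes can give rise to several transcripts, through alternative promoters, alternative splicing and alternative polyadenylation, and these can encode different proteins or carry different untranslated regions. Neurons and oligodendrocytes use many such alternatives in receptors, scaffolds, adhesion proteins and myelin proteins, under the control of RNA-binding proteins such as the Rbfox, Nova, Ptbp, Celf and Mbnl families. Short reads that fall in exons common to several transcripts have to be divided among them by a model, so the level of a single transcript is an estimate that rests on the few reads that tell it from its relatives.

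The libraries held 13587153 to 24039706 expected counts. All het libraries (21410135 to 24039706) were deeper than all wild-type libraries (13587153 to 18538305), in both conditions, so depth went with genotype and not with stress. Between 44606 and 50069 transcripts had a count above 0 in a library. Abundant transcripts were at times listed at 0: of the 21479 transcripts with a mean count of at least 50 over the 12 libraries, 2137 were listed at 0 in at least 1 library, and 2117 of these belonged to genes with 2 or more annotated transcripts, as did 18419 of the 21479. The tissue label held: the summed TPM of 9 striatal neuron markers was 5172 to 8372 in stressed libraries and 3795 to 7980 in unstressed libraries, and none of the markers was at 0 in any library. The summed TPM of 7 choroid plexus markers, led by Ttr, was 6.04 to 573 in stressed libraries and 9.68 to 853 in unstressed libraries. Ttr, the choroid plexus carrier of thyroid hormone, had 8457 counts in het stress replicate 3 and 11 to 189 in the other stressed libraries, against 40 counts in het control replicate 3 and 3836 to 14728 in the other unstressed libraries. The part of choroid plexus RNA in the results was not tested. Cntnap2 had 36.0 to 59.5 TPM in het libraries and 39.7 to 68.3 TPM in wild-type libraries, so its total did not separate the genotypes. In the library labelled wild-type stress replicate 2, Xist, the RNA of the inactive X chromosome, had 50 counts, against 2307 to 12463 counts in the other 11 libraries, all labelled female. The label and the table of het control replicate 1 name different animals.

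The level of 37796 transcripts of 15754 genes was compared by the quasi-likelihood test of edgeR, and no transcript was called at an adjusted p of 0.05 (0% of those tested; smallest adjusted p = 0.884). At an unadjusted p below 0.05 there were 1187 transcripts, 3.14% of those tested, of which 531 were higher and 656 lower in stressed libraries. DESeq2, run on the same counts, called 56 transcripts, 24 of them higher and 32 lower, and limma-voom with sample weights called 0. The share of 23685 transcripts of 8097 genes with 2 or more transcripts was tested with limma, and 2 transcripts were called, 0.00844% of those tested. Both belonged to 1 gene, Gpam, which was also the 1 gene called of 8097 (0.0124%) when p-values were combined per gene. At an unadjusted p below 0.05 there were 1982 transcripts, 8.37% of those tested. The shares of the 6 stressed libraries did not overlap those of the 6 unstressed libraries for 115 transcripts of 101 genes (0.486%), 56 of them higher and 59 lower in stressed libraries.

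Gpam encodes the mitochondrial glycerol-3-phosphate acyltransferase, which carries out the first step of glycerolipid synthesis. The annotation used by the authors holds 2 transcripts of the gene, on chromosome 19: a long one of 6223 nt (ENSMUST00000086868.2) and a short one of 3832 nt (ENSMUST00000061856.5). The short transcript had 85, 72 and 82 counts in het stressed libraries and 81, 106 and 124 counts in wild-type stressed libraries. It had 0, 0 and 0 counts in het unstressed libraries and 5, 0 and 14 counts in wild-type unstressed libraries. Every stressed library was thus above every unstressed one, in both genotypes, and 4 of the 6 unstressed libraries were listed at 0.

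The share of the short Gpam transcript was 11.5% ± 3.51 in stressed libraries and 0.461% ± 0.746 in unstressed libraries (SD, n = 6 each), a difference of 11.1 percentage points with an adjusted p of 0.000908 by limma. It ranged from 7.09 to 16.3% in stressed libraries and from 0 to 1.72% in unstressed libraries. By genotype the share averaged 8.61% in het stressed against 0% in het unstressed libraries, and 14.5% in wild-type stressed against 0.921% in wild-type unstressed libraries. The difference in share between conditions had no interaction with genotype that passed the limma test (unadjusted p = 0.787). The long transcript made up the rest of the gene, 88.5% in stressed libraries and 99.5% in unstressed libraries. Its counts were 679 to 1535 in stressed libraries and 750 to 1639 in unstressed libraries, which overlapped.

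**Figure D1:**
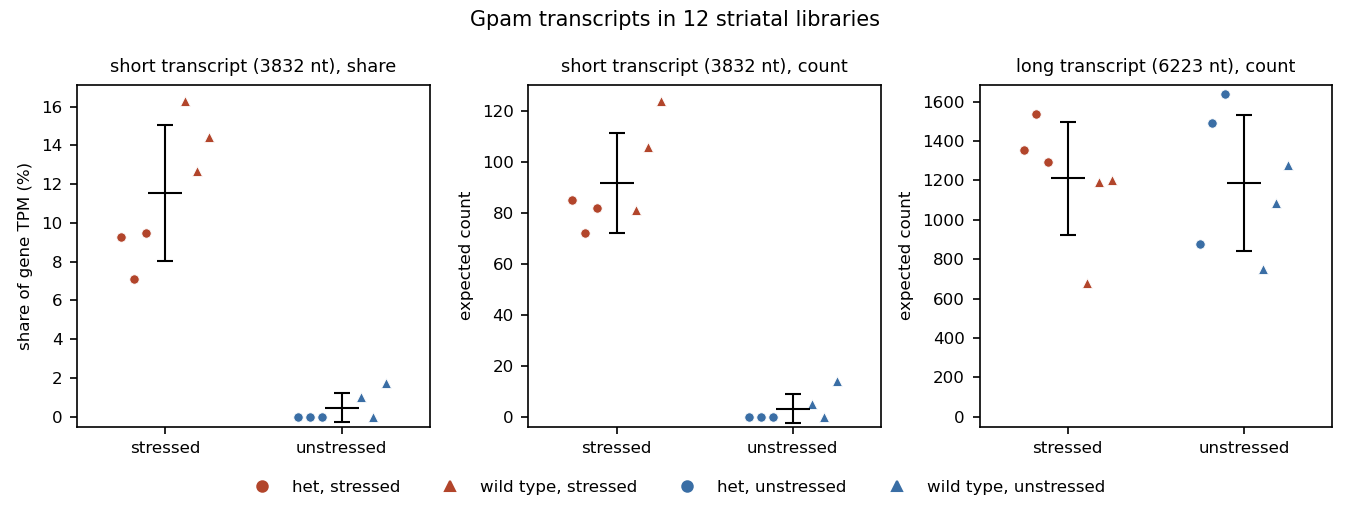
Share of the short Gpam transcript in percent of the gene's TPM (left), its expected counts (middle) and the expected counts of the long transcript (right), with 1 point per library, the mean as a bar and the SD as whiskers over 6 libraries. The short transcript lies between 72 and 124 counts in stressed libraries and between 0 and 14 in unstressed libraries, whereas the long transcript overlaps between the groups.

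As a level, the short Gpam transcript was 5.48 ± 1.03 higher (log2 fold change ± SE) in stressed libraries by edgeR, with an adjusted p of 0.9997, so the same transcript passed the test of its share and not the test of its level. DESeq2 called its level (adjusted p = 1.9e-06). The level of this transcript had an interaction with genotype at an unadjusted p of 0.0179 by edgeR, which was not called after adjustment. Its counts were 0 in all het unstressed libraries. The share call held whichever of the 12 libraries was left out (adjusted p 0.000851 to 0.00681) and without het control replicate 1 and wild-type control replicate 1 together (adjusted p = 0.0145). It was lost when shares were tested without the arcsine transform (adjusted p = 0.113).

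RefSeq places 2 start sites of Gpam 27761 bp apart on the minus strand of chromosome 19 in GRCm38.p6. Their promoter windows (250 bases before to 50 after the start) are shown because the transcript that separated the groups belongs to a gene with more than 1 promoter. CG dinucleotides, the sites of cytosine methylation, are in capitals.
Gpam window 1, chr19:55127189-55127488, minus strand: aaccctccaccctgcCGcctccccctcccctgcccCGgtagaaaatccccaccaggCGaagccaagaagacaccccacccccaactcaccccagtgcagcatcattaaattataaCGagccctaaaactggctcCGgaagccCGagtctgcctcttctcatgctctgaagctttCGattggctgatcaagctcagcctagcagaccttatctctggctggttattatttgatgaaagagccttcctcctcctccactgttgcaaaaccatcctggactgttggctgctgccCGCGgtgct
Gpam window 2, chr19:55099428-55099727, minus strand: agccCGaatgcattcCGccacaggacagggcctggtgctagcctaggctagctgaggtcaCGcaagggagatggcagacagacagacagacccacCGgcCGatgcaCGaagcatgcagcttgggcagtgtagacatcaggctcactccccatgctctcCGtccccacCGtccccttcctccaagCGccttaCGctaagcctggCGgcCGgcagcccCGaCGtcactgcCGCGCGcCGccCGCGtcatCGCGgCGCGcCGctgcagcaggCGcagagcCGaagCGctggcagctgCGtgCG
The first window had a GC content of 55.7% and 9 CG dinucleotides, and the second 68.0% and 30, against medians of 52.7% and 7 over 32851 mouse promoter windows of the same length. Neither window, on either strand, held AGAACA, a core hexamer of glucocorticoid receptor binding sites, which 18.97% of all windows hold, or TCACNCCAC, a sterol response element of the SREBP factors, which 1.24% hold. Which of the 2 transcripts of the older annotation starts at which window cannot be read from the files, so the windows describe the gene and not the difference.

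After Gpam, the 9 genes of smallest p by share had adjusted p-values per gene of 0.154 to 0.612 and are given as values. Cep41 encodes a centrosomal protein needed for tubulin glutamylation in cilia. Its transcript of 3119 nt had 0 to 3 counts in stressed libraries and 17 to 92 counts in unstressed libraries. It made up 0.499% ± 0.839 of the gene in stressed libraries and 32.2% ± 14.5 in unstressed libraries, and the groups did not overlap (adjusted p = 0.129 by limma). Its p passed the threshold with array weights (adjusted p = 0.0449), on the logit scale (0.018) and by edgeR's diffSpliceDGE (0.000515), a test of a transcript's fold change against that of its gene.

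Tsc1 encodes hamartin, which with tuberin holds back the growth kinase complex mTORC1. Its transcript of 7674 nt made up 29.5 to 54.2% of the gene in stressed libraries and 0 to 27.2% in unstressed libraries, without overlap (means of 44.98% in stressed and 10.7% in unstressed libraries; adjusted p = 0.369 by limma). The unstressed values split by genotype: 0%, 0.234% and 0% in het libraries, and 24.7%, 27.2% and 11.9% in wild-type libraries. The interaction had an unadjusted p of 0.000894 and an adjusted p of 1 by limma. With 4 group means in place of the additive fit, the share was called (adjusted p = 0.011). The 3 tested Tsc1 transcripts are 7595 to 7682 nt long.

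Ubox5, which encodes a ubiquitin ligase of the U-box type, also had groups that did not overlap. Its transcript of 3466 nt made up 0 to 14.8% in stressed libraries and 20.8 to 55.3% in unstressed libraries. Mphosph10, a protein of the small-subunit processome of the nucleolus, showed the opposite: its main transcript was at 95.3 to 100% in stressed libraries and 75.4 to 92.1% in unstressed libraries. Dnaja4 encodes a co-chaperone of heat shock protein 70, and its main transcript was at 86.2 to 92.6% in stressed libraries and 92.9 to 98.7% in unstressed libraries. All 3 separations were without overlap. The p for Dnaja4 passed the threshold without wild-type control replicate 3 (adjusted p = 0.0407).

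Tmem8b had a transcript of 4726 nt that was at 0% in all 6 stressed libraries and at 3.22 to 35.9% in unstressed libraries, and diffSpliceDGE called it (adjusted p = 1.86e-05). Pfkfb2, whose enzyme sets the level of an activator of glycolysis, had a transcript of 1558 nt at 10.7 to 24.8% in stressed libraries and 0 to 6.76% in unstressed libraries. Uros encodes an enzyme of heme synthesis. Its transcript of 1483 nt made up 18.8% ± 6.27 in stressed libraries and 33.1% ± 6.60 in unstressed libraries (SD, n = 6 each), with 1 unstressed library just below the highest stressed one. Ptbp3 encodes a splicing repressor of the polypyrimidine tract-binding family. Its transcript of 669 nt made up 5.02 to 39.8% in stressed libraries and 0 to 8.06% in unstressed libraries, so the groups overlapped. These shares came from 3 to 16 expected counts in stressed libraries and 0 to 2 in unstressed libraries.

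**Figure D2:**
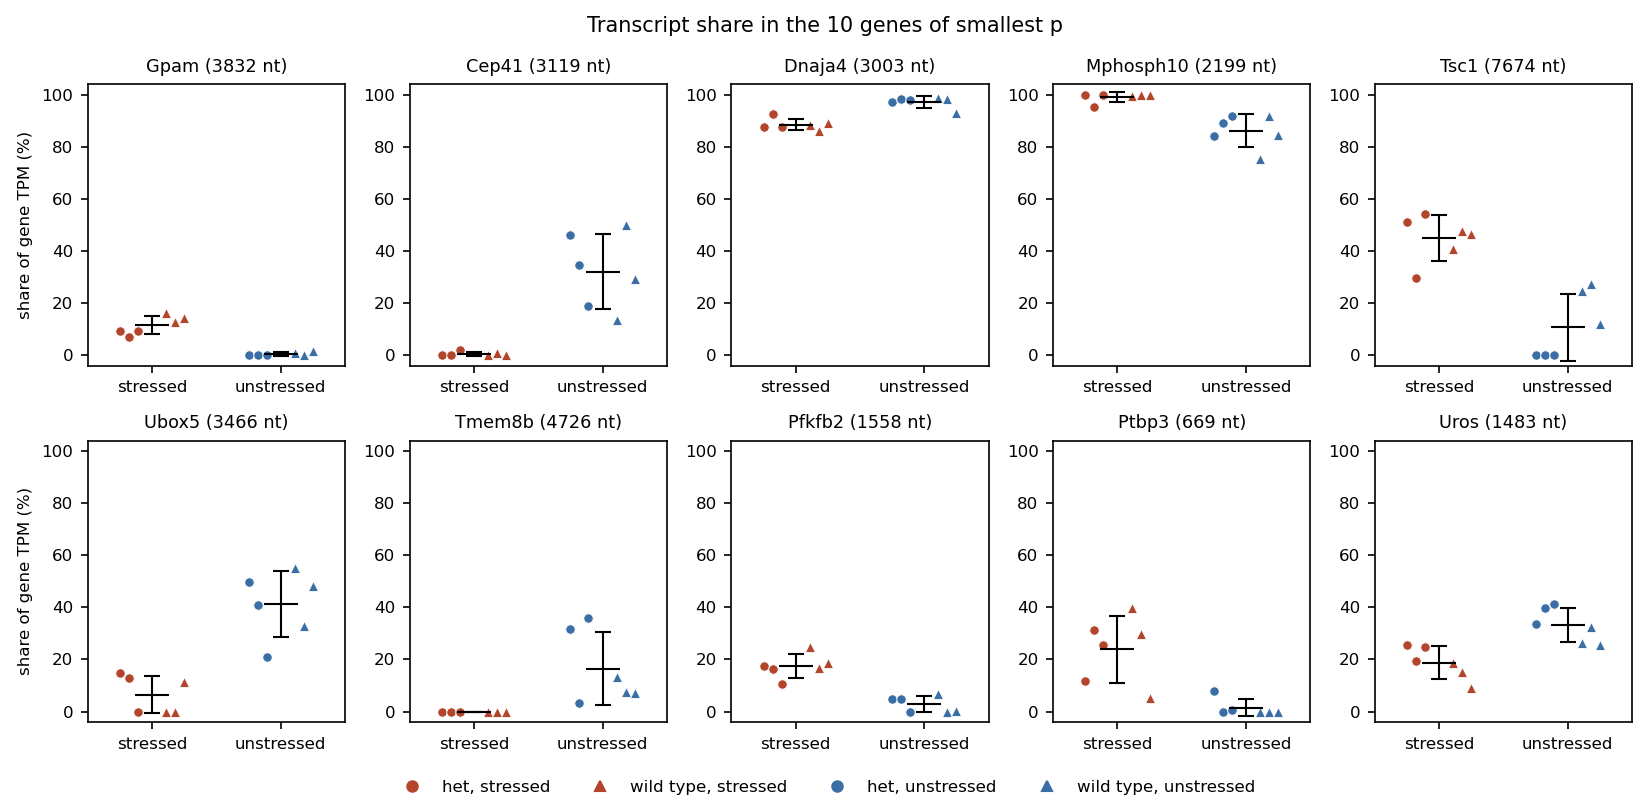
Share of 1 transcript in percent of its gene's TPM in the 10 genes of smallest p, each point 1 library, bars the mean and whiskers the SD of 6 libraries. Gpam was called. In the other 9 genes the values separate the groups fully or nearly so without passing the adjusted limma test. All were chosen by the p of this same comparison, so the separation follows in part from the choice. By diffSpliceDGE, Cep41 and Tmem8b were also called.

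In 5 transcripts all 6 libraries of one condition were at 0 and all 6 of the other above 0. Of these, 4 fell under the rule for named transcripts and Aifm3 was added after its values were seen. Tmem8b (ENSMUST00000107864.1) had 0 counts in all stressed libraries and 40, 69, 76, 81, 246 and 525 counts in unstressed libraries, at least 331-fold lower in stressed libraries against a floor of 3 counts over the group, scaled for library size. Dlgap4, a scaffold protein of the postsynaptic density, had a transcript of 2817 nt with 0 counts in all stressed libraries and 40 to 396 counts in unstressed libraries, at least 418-fold lower. Cnot3, a subunit of the CCR4-NOT deadenylase, had a transcript of 852 nt with 0 counts in all stressed libraries and 6 to 59 counts in unstressed libraries, at least 51.0-fold lower. Zfp420, a zinc finger gene, had a transcript of 2744 nt with 8 to 33 counts in stressed libraries and 0 in all unstressed libraries, at least 40.2-fold higher. A listed 0 depends on how the model divided reads among the transcripts of a gene. These folds therefore describe expected counts and are not bounds on the change in RNA. Aifm3, a relative of apoptosis-inducing factor, had its transcript of 2678 nt (ENSMUST00000100128.4) at 0 in all unstressed and above 0 in all stressed libraries. None of these passed edgeR's test (adjusted p of 0.884 to 0.9997), and DESeq2 called all 5 (adjusted p of 3.37e-15 to 0.000146). The CPM of 93 transcripts did not overlap between the groups, 0.246% of those tested.

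Other transcripts near the top of the level test were listed at 0 in part of a group. Mbnl2, a muscleblind splicing regulator, had a transcript of 1709 nt with 88, 118 and 177 counts in wild-type stressed libraries and 0 in the 3 het stressed and all 6 unstressed libraries. Traf3, an adaptor of tumour necrosis factor receptors, had the same pattern with 50, 100 and 96 counts in wild-type stressed libraries and 0 elsewhere. Rnf14, a ubiquitin ligase, had 0 counts in 5 of 6 stressed libraries and 5 in the other, against 1 to 590 counts in unstressed libraries. Ppp1r13b, which encodes a protein that binds p53, had 0 or 1 count in stressed libraries and 0 to 194 counts in unstressed libraries. Klhl9, Cdk14 and Tmem8 also had libraries at 0 in both groups. DESeq2 called Rnf14, Ppp1r13b, Klhl9, Cdk14 and Tmem8 (adjusted p of 1.9e-05 to 0.024), and neither Mbnl2 nor Traf3.

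Transcripts with counts in every library showed smaller differences. Taf15, an RNA-binding protein of the FET family, had 156 to 397 counts in stressed libraries and 113 to 176 in unstressed libraries, a log2 fold change of 0.93. Slc25a22, a glutamate carrier of mitochondria, had 41 to 90 counts in stressed libraries and 13 to 42 in unstressed libraries, a log2 fold change of 1.17. Zfp451, which encodes a SUMO ligase, had a log2 fold change of 1.01. All had an adjusted p of 0.9997 by edgeR, and DESeq2 called all 3 (adjusted p of 0.00202 to 0.00494).

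Among those lower, Wdr7, a partner of the vesicular proton pump, had 133 to 371 counts in stressed libraries and 356 to 604 in unstressed libraries, a log2 fold change of -0.87. Cxcl12, a chemokine of vessels and meninges, had 18 to 85 counts in stressed libraries and 66 to 180 in unstressed libraries, a log2 fold change of -1.48. Enpp2, autotaxin, an enzyme of lysophospholipid signalling made in choroid plexus and oligodendrocytes, had 58.3 ± 22.03 TPM in stressed libraries and 101 ± 22.6 TPM in unstressed libraries. The stressed library with the highest Enpp2 count (4097, het stress replicate 3) was also the 1 with 8457 Ttr counts, where the other stressed libraries had 11 to 189. In bulk tissue, fewer cells of a type and less RNA per cell cannot be told apart. By DESeq2, Wdr7, Enpp2 and Cxcl12 were called (adjusted p of 0.00245 to 0.00734).

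**Figure D3:**
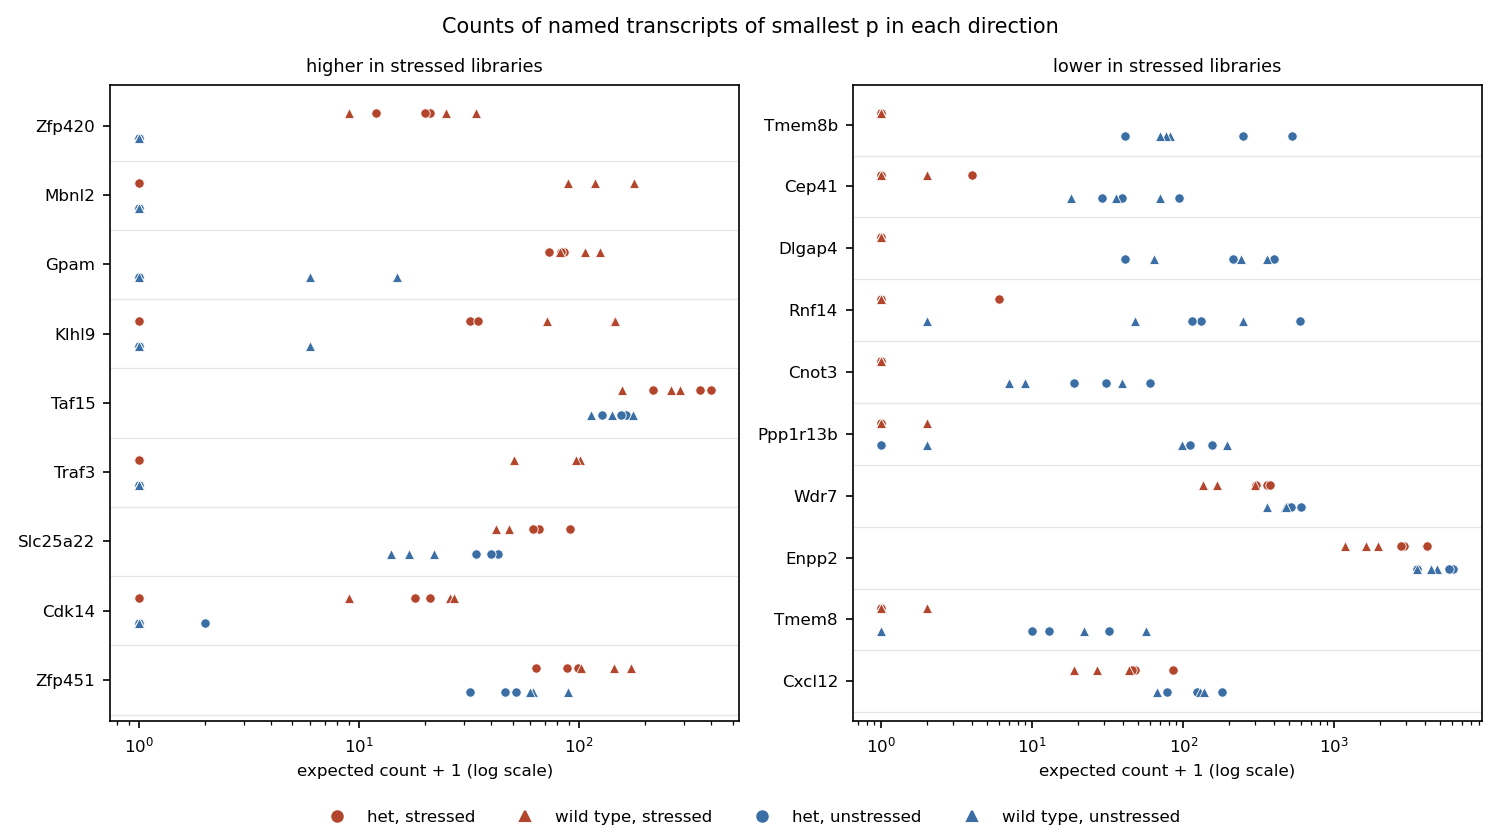
Expected counts plus 1 on a log axis for 9 transcripts named as higher and 10 named as lower in stressed libraries, stressed libraries in the upper line of each gene and unstressed libraries in the lower line. Points at 1 are libraries at 0 counts.

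The difference between stressed and unstressed libraries was also compared between genotypes. No transcript was called for the interaction, by level (edgeR; 804 at an unadjusted p below 0.05; smallest adjusted p = 0.1998) or by share (limma; 874; smallest adjusted p = 0.328), 0% of those tested in both. Leaving out 1 library at a time gave 0 to 4 calls by level, with 4 without wild-type stress replicate 3, 3 without wild-type control replicate 3 and 2 without wild-type control replicate 2. By share it gave 4 calls without wild-type control replicate 3 and 0 in the other fits. Mbnl2 and Traf3, whose transcripts were above 0 in wild-type stressed libraries alone, had unadjusted interaction p-values of 0.9996 and 0.9994 by edgeR. Their counts were 0 in all other groups, where a fold change has no defined value. These p-values therefore cannot show whether the difference depends on genotype.

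Genes of glutamate and GABA transmission were the list with the largest share of its transcripts at an unadjusted p below 0.05 in the share test, 23 of 78 tested (29.5%, against 8.37% over all transcripts), and 5 of its 25 tested genes (6.31% over all genes). None of its genes was called. Its transcripts had a median log2 fold change of 0.19 in the level test, with 95 higher and 39 lower of 134 tested, against a median of -0.00243 and 18784 higher and 19012 lower over all 37796. Without het control replicate 1 and wild-type control replicate 1, the 2 unstressed libraries of lowest length slope (defined with the library summaries), that median was 0.02, with 77 higher and 59 lower of 136, and 15 of 75 transcripts (20%) had an unadjusted p below 0.05 by share, against 5.51% over all. The summed TPM of 6 cortical excitatory neuron markers, none at 0, was 15.2 to 160 in stressed libraries and 12.8 to 146 in unstressed libraries. It was 105 to 160 in 5 of the 6 stressed libraries and 12.8 to 89.4 in 5 of the 6 unstressed libraries, and its part in the values of this list was not tested. Gria4, an AMPA receptor subunit, had 4 tested transcripts. The 5441 nt transcript ENSMUST00000027020.6 made up 14.2 to 29.2% in stressed libraries and 33.2 to 45.9% in unstressed libraries, without overlap. Its mean was 24.0% ± 6.55 in stressed libraries and 39.4% ± 5.11 in unstressed libraries (SD, n = 6 each; adjusted p = 0.528 by limma). The other transcript of 5441 nt averaged 20.7% in stressed libraries and 14.1% in unstressed libraries, and the one of 2954 nt 14.5% in stressed libraries and 4.16% in unstressed libraries.

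Dlg2, a postsynaptic scaffold, had a transcript of 4007 nt at 4.12% ± 3.02 in stressed libraries and 10.8% ± 2.85 in unstressed libraries, with the highest stressed value (8.003%) just below the lowest unstressed value (8.005%).

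Synaptic adhesion genes had 15 of 74 tested transcripts (20.3%) at an unadjusted p below 0.05 by share, against 8.37% over all transcripts. Of the genes tested, 6 of 21 were below that p, against 6.31% over all genes, and none was called. Clstn3, which encodes calsyntenin-3, a postsynaptic adhesion protein, had a transcript of 3703 nt at 1.33 to 16.5% in stressed libraries and 18.4 to 31.5% in unstressed libraries. Its 4014 nt transcript averaged 71.1% ± 11.2 in stressed libraries and 43.5% ± 17.5 in unstressed libraries, with overlap. Ptprf, the receptor phosphatase LAR, had a transcript of 7656 nt at 49.8% ± 2.76 in stressed libraries and 57.3% ± 4.22 in unstressed libraries. Ptprd, a related phosphatase, had a transcript at 1.73 ± 0.524 TPM in stressed libraries and 0.908 ± 0.393 TPM in unstressed libraries. Het control replicate 1 and wild-type control replicate 1 lay at the low end of the unstressed range for the long Clstn3 transcript (24.3% and 20.02%). Without het control replicate 1 and wild-type control replicate 1, 9 of 74 transcripts (12.2%) were below that p by share, against 5.51% over all transcripts. The median log2 fold change of the list was then -0.01, against 0.18 with these 2 libraries.

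**Figure D4:**
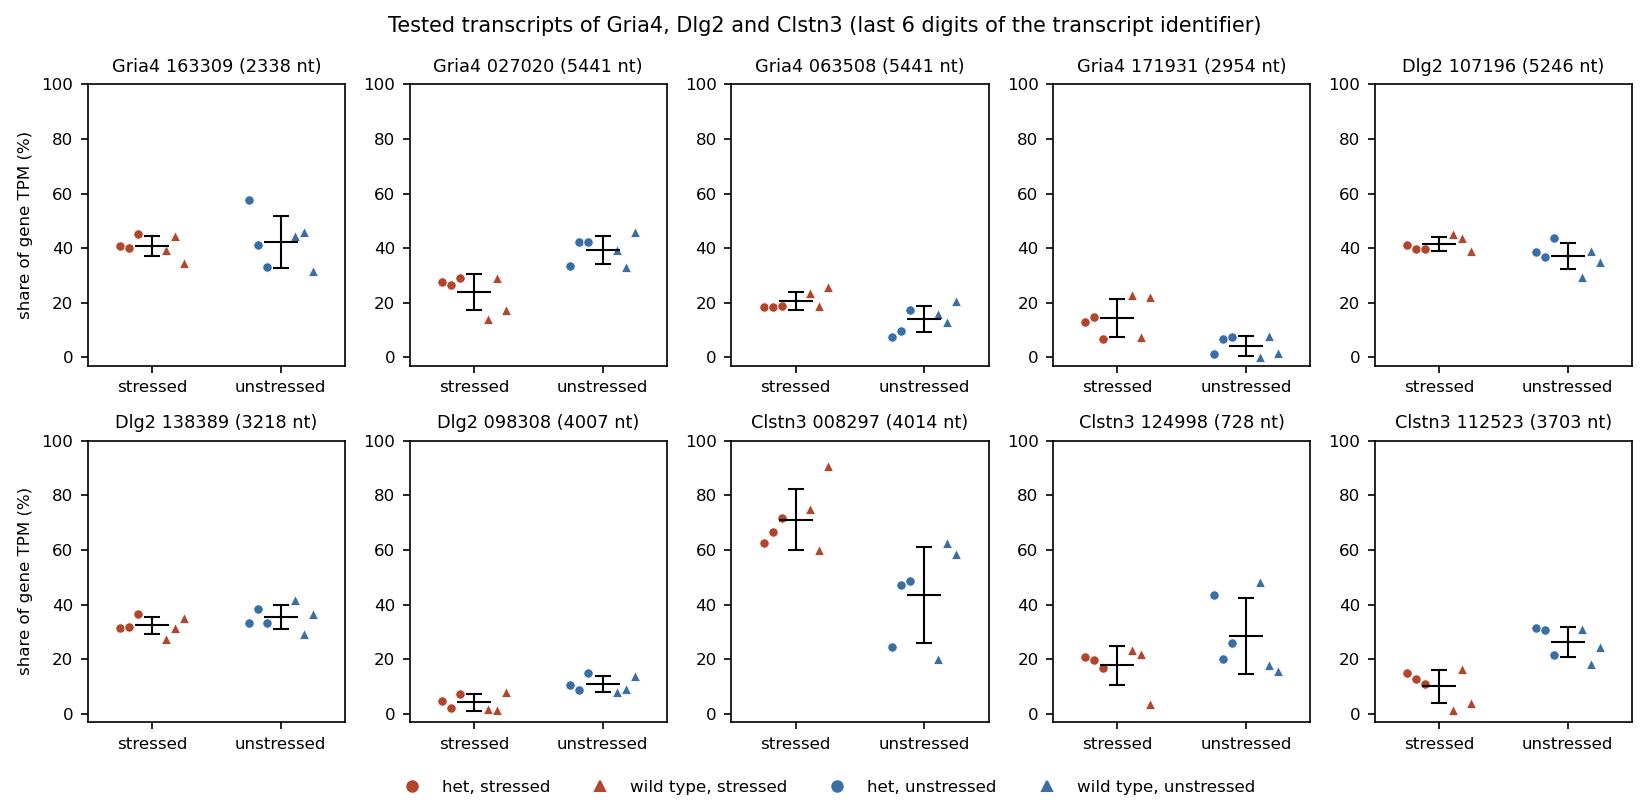
Shares of all tested transcripts of Gria4, Dlg2 and Clstn3 in percent of the gene's TPM, each point 1 library, bars the mean and whiskers the SD of 6 libraries. For 1 transcript of each gene, the 5441 nt Gria4 transcript of larger unstressed share, the 4007 nt Dlg2 and the 3703 nt Clstn3 transcript, all stressed libraries lie below all unstressed libraries, and none passed the adjusted test. The genes were chosen by their small p in this same comparison, so the separation follows in part from the choice.

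Myelin genes had 55 of 70 tested transcripts lower and 15 higher in stressed libraries, with a median log2 fold change of -0.19, and 8 of them (11.4%, all lower) had an unadjusted p below 0.05, against 3.14% over all transcripts. None was called. Gjb1, the gap junction protein connexin 32, was at 30.0 ± 5.18 TPM in stressed libraries and 37.7 ± 8.02 TPM in unstressed libraries. Ugt8a, an enzyme of galactolipid synthesis with 1 annotated transcript, was at 31.4 ± 4.35 TPM in stressed libraries and 37.5 ± 9.93 TPM in unstressed libraries. In wild type, Ugt8a had 25.48 to 29.79 TPM in stressed and 29.83 to 54.87 TPM in unstressed libraries. In het libraries it had 33.79 to 36.56 TPM stressed and 28.15 to 35.5 TPM unstressed. The unadjusted interaction p by edgeR was 0.0408 for Ugt8a and 0.0839 for Gjb1, neither called after adjustment. By share, Bcas1, a marker of myelinating oligodendrocytes, had a transcript of 2916 nt at 7.77% ± 0.657 in stressed libraries and 6.00% ± 0.798 in unstressed libraries. Tspan2, a tetraspanin of myelin, had its transcript of 961 nt at 33.0% ± 2.89 in stressed libraries and 26.2% ± 5.39 in unstressed libraries. The summed TPM of 7 oligodendrocyte markers was 6532 to 11039 in stressed libraries and 5027 to 13326 in unstressed libraries, so it overlapped; its part in the lower values was not tested. Without the same 2 unstressed libraries, 62 of 71 transcripts were lower, the median was -0.31, and 20 (28.2%) had an unadjusted p below 0.05 by level, against 3.17% over all. By share 1 of 29 (3.45%) did, against 5.51% over all transcripts. With these 2 libraries 3 of 32 (9.38%) did by share, near the 8.37% over all transcripts, and 2 of 14 genes, against 6.31% over all genes. The Tspan2 difference was 4.1003 points without the 2 libraries, against 6.78 points with them.

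Splicing regulators had 112 of 181 tested transcripts higher and 69 lower, a median log2 fold change of 0.09. By share 9 of 120 transcripts (7.5%) had an unadjusted p below 0.05, near the 8.37% over all transcripts. Besides Ptbp3, described above, Mbnl2 was among the genes of smallest p by share, and its 4498 nt transcript made up 45.996% ± 3.34 in stressed libraries and 52.8% ± 3.83 in unstressed libraries. Cytoskeletal genes had 91 of 149 transcripts higher, a median of 0.10, and 12 of 71 (16.9%) below that p by share, against the same 8.37%. Kif5c, a kinesin motor of axons, had a 775 nt transcript at 8.77 to 23.4% in stressed libraries and 0 to 13.0% in unstressed libraries. Mapt, tau, had its transcript of 5253 nt at 82.2% ± 3.80 in stressed libraries and 87.2% ± 2.65 in unstressed libraries. Add1, a membrane skeleton protein, had a transcript at 16.8 ± 3.47 TPM in stressed libraries and 27.5 ± 7.93 TPM in unstressed libraries, and Sptbn1, a spectrin, had 0 to 15 counts in stressed libraries and 0 to 520 in unstressed libraries. The high Sptbn1 counts, 520 and 438, came from het control replicate 1 and wild-type control replicate 1. Add1 differed by a log2 fold change of -0.96 with these 2 libraries (33.7 and 39.8 TPM, against 18.7 to 26.8 TPM in the other 4 unstressed libraries) and -0.45 without them, and Sptbn1 by -4.52 and -0.33. Without them the median was 0.04 for splicing regulators, and for cytoskeletal genes -0.12, with 101 of 161 transcripts lower. By share 8 of 71 cytoskeletal transcripts (11.3%) were then below that p, against 5.51% over all transcripts.

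Striatal signalling genes had 85 of 133 transcripts higher and 48 lower, a median log2 fold change of 0.09, and 5 of 56 (8.93%) at an unadjusted p below 0.05 by share, near the 8.37% over all transcripts. Arpp21, a phosphoprotein regulated by cyclic AMP, had its main tested transcript at 69.5% ± 1.97 in stressed libraries and 73.0% ± 1.01 in unstressed libraries. Prkca, a protein kinase C, had its main transcript at 88.1% ± 10.2 in stressed libraries and 96.4% ± 4.98 in unstressed libraries. Sez6, a complement-like protein of dendrites, was at 39.4 ± 10.6 TPM in stressed libraries and 46.4 ± 10.2 TPM in unstressed libraries. Without the 2 unstressed libraries of lowest length slope, the median of the list was -0.06, with 83 of 138 transcripts lower. By share 2 of 56 (3.57%) were then below that p, against 5.51% over all transcripts. The log2 fold change of Sez6 was -0.22 without these 2 libraries, against -0.45 with them.

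Activity-regulated genes had 23 of 50 transcripts higher and 27 lower, a median log2 fold change of -0.03. By share 3 of 33 (9.09%) had an unadjusted p below 0.05, near the 8.37% over all transcripts. The nuclear receptor genes Nr4a2 and Nr4a3 were first by share. The Nr4a2 transcript of 3422 nt was at 9.10% ± 9.64 in stressed libraries and 29.6% ± 19.9 in unstressed libraries, and the Nr4a3 transcript of 5068 nt at 24.6% ± 12.9 in stressed libraries and 48.6% ± 24.4 in unstressed libraries, with overlap in both. Het control replicate 1 and wild-type control replicate 1 had 87.8% and 66.96% for Nr4a3, against 20.3 to 43.1% in the other 4 unstressed libraries. Without them the difference was -9.60 points for Nr4a3, against -24.0 with them, and -12.4 points for Nr4a2, against -20.5. The median of the list was then -0.11.

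Genes of the glucocorticoid and stress axis had 35 of 57 transcripts higher and 22 lower, a median log2 fold change of 0.09. By share 5 of 32 (15.6%) had an unadjusted p below 0.05, against 8.37% over all transcripts. Fkbp4, a co-chaperone of the glucocorticoid receptor, had a transcript of 891 nt at 8.94% ± 2.41 in stressed libraries and 2.75% ± 3.19 in unstressed libraries. Hsp90aa1, the chaperone that holds the receptor ready for hormone, had a transcript of 3281 nt at 14.1% ± 0.536 in stressed libraries and 11.3% ± 1.82 in unstressed libraries. Htr2a, a serotonin receptor with 1 annotated transcript, was at 6.77 ± 1.13 TPM in stressed libraries and 4.11 ± 1.26 TPM in unstressed libraries. Oxtr, the oxytocin receptor, was at 1.18 ± 0.235 TPM in stressed libraries and 0.607 ± 0.280 TPM in unstressed libraries. None was called. Without het control replicate 1 and wild-type control replicate 1, the median was -0.002, with 29 transcripts higher and 31 lower. By share 6 of 30 (20%) were then below that p, against 5.51% over all transcripts.

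Genes of DNA methylation had 27 of 46 transcripts higher and 19 lower, a median log2 fold change of 0.09. By share 4 of 32 (12.5%) had an unadjusted p below 0.05, against 8.37% over all transcripts. Dnmt3a, a de novo methyltransferase, had a transcript of 5424 nt at 15.6% ± 7.65 in stressed libraries and 27.0% ± 5.12 in unstressed libraries. The Dnmt3a difference was -8.24 points without het control replicate 1 and wild-type control replicate 1, against -11.4 with them. Idh1, an enzyme that makes the cosubstrate of TET enzymes, had a transcript of 1435 nt at 38.7% ± 5.15 in stressed libraries and 18.1% ± 14.6 in unstressed libraries. Tdg, a glycosylase of active demethylation, had a transcript with 0 to 22 counts in stressed libraries and 0 in all unstressed libraries. This was at least 20.6-fold higher in expected counts, against the same floor as above. Mbd4, a related glycosylase, had a transcript with 0 to 2 counts in stressed libraries and 0 to 32 in unstressed libraries. Idh1 was at 0% in het control replicate 1 and 1.07% in wild-type control replicate 1, against 17.3 to 33.4% in the other 4 unstressed libraries. Without these 2 its difference was 11.7 points, against 20.5 with them. The median of the list was then -0.03, with 22 transcripts higher and 26 lower. By share 2 of 32 (6.25%) were then below that p, near the 5.51% over all transcripts.

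Of 20 genes known for their isoforms, 19 had transcripts in the share test, since Fosb has 1 annotated transcript, and none was called (smallest adjusted p = 0.588 by limma). Drd2, the dopamine receptor with a long and a short splice form, had its transcript of 2547 nt at 83.0% ± 2.70 in stressed libraries and 80.3% ± 1.57 in unstressed libraries. Mbp had its main tested transcript at 78.6% ± 1.20 in stressed libraries and 78.5% ± 0.388 in unstressed libraries. Ntrk2, the receptor of brain-derived neurotrophic factor, had its transcript of 7002 nt at 65.5% ± 4.61 in stressed libraries and 63.8% ± 1.82 in unstressed libraries. Gria2, an AMPA receptor subunit with alternative exons, has 2 tested transcripts of 6841 nt, and the more abundant one was at 72.6% ± 3.53 in stressed libraries and 73.1% ± 6.36 in unstressed libraries.

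The transcript of Cntnap2 that dominated was the one of 1625 nt, at 77.8% ± 9.66 in stressed libraries and 80.2% ± 12.0 in unstressed libraries. The one of 6983 nt was at 18.3% ± 7.96 in stressed libraries and 16.1% ± 10.6 in unstressed libraries. By genotype, this 6983 nt transcript averaged 13.4% in het and 23.2% in wild-type stressed libraries. In unstressed libraries it averaged 11.3% in het and 20.9% in wild type, with overlap (4.44 to 14.9% against 9.46 to 35.4%). The genotype difference in share was not tested here. Bdnf, the neurotrophin with several promoters, averaged 73.8 counts for the whole gene, and the shares of its 4 tested transcripts ran from 0 to 100% between libraries. Nr3c1, the glucocorticoid receptor, had 2 long transcripts, at 56.2% ± 10.7 and 31.2% ± 7.83 in stressed libraries and 70.5% ± 14.95 and 19.1% ± 11.3 in unstressed libraries. Per1, a clock gene that glucocorticoids induce, had its transcript of 4671 nt at 70.1% ± 9.49 in stressed libraries and 51.6% ± 17.4 in unstressed libraries. Ncam1, an adhesion protein, had its transcript of 4518 nt at 28.3% ± 1.14 in stressed libraries and 31.9% ± 2.40 in unstressed libraries. The smallest unadjusted p of Nr3c1, Per1 and Ncam1 was 0.0355 to 0.0398 by limma. The Per1 difference was 12.4 points without het control replicate 1 and wild-type control replicate 1, against 18.5 with them. In the same setting it was 8.03 points for the Nr3c1 transcript of 6436 nt, against 12.0, and -2.50 points for Ncam1, against -3.57.

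For several of these genes the same 2 unstressed libraries, het control replicate 1 and wild-type control replicate 1, lay apart. Rgs9, a regulator of G-protein signalling in striatal neurons, had its transcript of 1743 nt at 1.44 to 10.2% in stressed libraries, against 38.04% in het control replicate 1, 35.6% in wild-type control replicate 1 and 2.37 to 11.4% in the other 4 unstressed libraries. Pde10a, the main phosphodiesterase of striatal neurons, had its transcript of 7717 nt at 41.8 to 56.1% in stressed libraries, against 0.410% and 14.5% in the same 2 unstressed libraries and 41.2 to 56.7% in the other 4. Homer1, a scaffold with a short form induced by activity, had its transcript of 3834 nt at 20.6 to 27.4% in stressed libraries, against 42.1% and 42.2% in the same 2 unstressed libraries and 22.1 to 30.7% in the other 4. Transcripts of Mapt, Snap25, Grin1 and Tsc22d3 had smallest unadjusted p-values per gene of 0.0226 to 0.414 by limma.

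Summaries over all genes of the share test gave 1 value per library. The effective number of isoforms, 1 over the sum of squared shares, had a median over genes of 1.94 ± 0.0131 in stressed libraries and 1.91 ± 0.0251 in unstressed libraries (SD, n = 6 each), a difference of 0.0303 with p = 0.04 in a two-sided exact permutation test within genotype and 0.12 adjusted over the 3 summaries; the smallest p this design allows is 0.005. The longest annotated transcript of a gene had a median share of 29.1% ± 0.826 in stressed libraries and 27.6% ± 2.46 in unstressed libraries (exact permutation p = 0.26). The slope of a library's level on transcript length, over 4444 transcripts of single-transcript genes, averaged 0.0321 ± 0.0858 in stressed libraries and -0.0321 ± 0.158 in unstressed libraries (exact permutation p = 0.44). Het control replicate 1 and wild-type control replicate 1 had the lowest slopes, -0.234 and -0.191, and the lowest shares of the longest transcript, 24.5% and 24.6%. In pairs of the same genotype and number, the effective number of isoforms was higher in the stressed library in 6 of 6 pairs (unadjusted exact permutation p = 0.03125, the smallest that 6 pairs allow), although no label ties the numbers to pairs. Without het control replicate 1 and wild-type control replicate 1 the difference in the effective number of isoforms was 0.0174 (exact permutation p = 0.15), and leaving out these 2 libraries, here and above, and pairing the summaries were chosen after seeing the data.

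**Figure D5:**
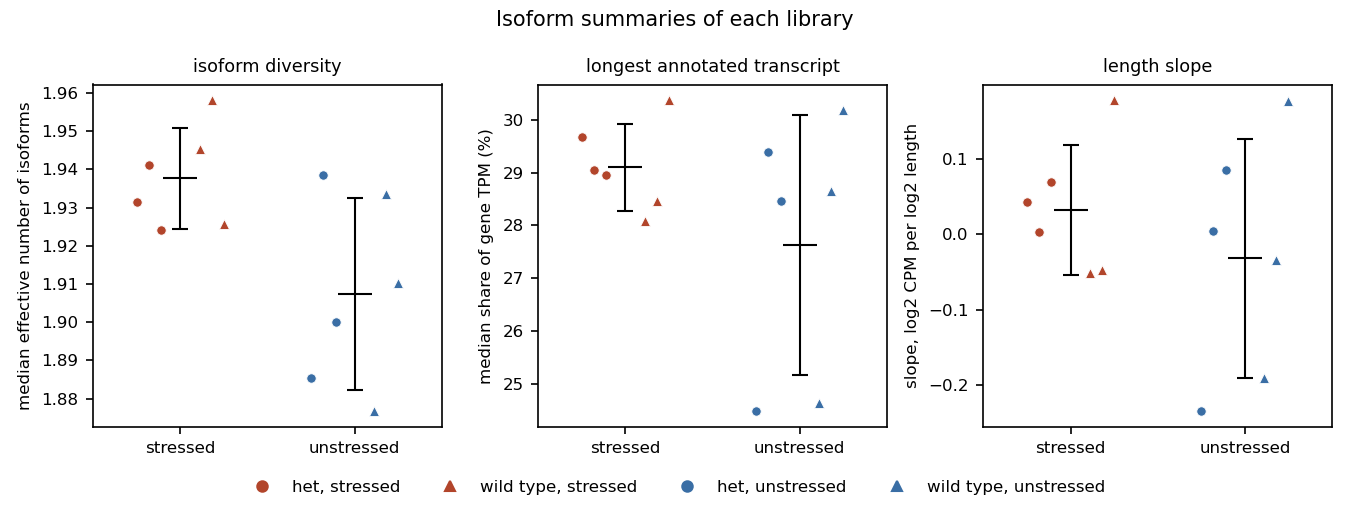
Median effective number of isoforms (left), median share of the longest annotated transcript in percent (middle) and length slope in log2 CPM per log2 nt (right), each point 1 library, bars the mean and whiskers the SD of 6 libraries; the axes do not start at 0. The 2 unstressed libraries at the bottom of the middle and right panels are het control replicate 1 and wild-type control replicate 1.

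The transcript with the highest mean share differed between stressed and unstressed libraries in 731 of 8097 genes, 9.03%. Among the genes named above these were Tsc1, Pfkfb2, Mbnl2, Ncam1 and Pde10a. In Tsc1 the leading transcript was that of 7674 nt in stressed libraries and that of 7682 nt in unstressed libraries. In Pde10a the leading transcript was that of 7717 nt in stressed libraries (49.2%) and that of 7386 nt in unstressed libraries (56.3%). The 7386 nt transcript was at 71.1% in het control replicate 1 and 74.9% in wild-type control replicate 1, against 41.2 to 54.3% in the other 4 unstressed libraries. In Ncam1 the 2371 nt transcript led in stressed libraries (34.9%) and the 4518 nt transcript in unstressed libraries (31.9%). The 2371 nt transcript was at 10.2% and 13.3% in the same 2 unstressed libraries, against 33.2 to 37.9% in the other 4. In Pfkfb2 the 4425 nt transcript led in stressed libraries (33.9%) and the 3689 nt transcript in unstressed libraries (37.1%). The latter was at 46.97% and 55.1% in the same 2, against 15.9 to 36.8% in the other 4.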

How the data were processed

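RNA of mouse striatum was sequenced in 12 libraries. Per the submitters' processing notes, reads were handled with Bowtie and RSEM against mm9 (NCBIM37), with versions not given in the sources used here. Per the file headers, each deposited table gives an expected count and a TPM value for every transcript. An expected count is RSEM's estimate of the reads from a transcript and depends on how the model divides reads among related transcripts. The deposited TPM values sum to the same total in each library. Per the labels' protocols, cDNA was made with random primers from about 100 ng of RNA.

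Expected counts were rounded to whole numbers and tested with edgeR 4.0.16 (TMM, filterByExpr, robust quasi-likelihood fit) in R 4.3.3, with genotype and condition as terms. Standard errors were taken from the fold change and its F statistic. Shares were computed from the deposited TPM for genes with a mean count of at least 50 and transcripts with a mean share between 0.05 and 0.95 of the gene, then tested with limma 3.58.1 on the arcsine square root, with the variance trend on gene count. For genes, the smallest p was multiplied by the number of transcripts tested. P-values were adjusted by Benjamini-Hochberg over all features tested and called at 0.05. Genotype interactions used 4 group means. Library summaries used an exact permutation test within genotype (400 arrangements) and, as an alternative, in pairs of the same number (64 arrangements). DESeq2 1.42.0, limma-voom and diffSpliceDGE were alternatives. The tests were also run on simulated counts, drawn with less spread between libraries than the fitted counts showed. That run does not measure power or false calls in these data.

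Named transcripts were those called, or the 10 of smallest p in each direction of the level test and the 10 genes of smallest p in the share test, the leading 2 of each gene list in both tests, and 20 genes known for isoforms. Some genes that fall under this rule are not reported here. The members and lists were chosen with earlier results of these data known. Gene names were found for 32606 of 37289 genes, and chromosomes come from RefSeq by symbol. Replicates were not copies of 1 library (chi-square per transcript between them, 14.3 to 128.3), so each was counted as 1 sample. P-values measure the spread between mice, whose litters are not given.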

Additional observations from a re-analysis of the deposited data

Results flagged for a closer look

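In 42 transcripts and 3 library summaries, 90 groups of 6 libraries were looked at for a library far from the others, and 5 were found; chance alone gives about 1 in 20 groups. Wild-type stress replicate 3 was the distant library in 2 of them. It had 33.48% for the 6983 nt Cntnap2 transcript, against 11.9 to 18.9% in the other stressed libraries. It also had 7.21% for the 638 nt Mbp transcript, against 5.13 to 5.88% in the others. In het stress replicate 2 the main Mphosph10 transcript was at 95.3%, against 99.4 to 100% in the other stressed libraries. In wild-type control replicate 3 the main Dnaja4 transcript was at 92.88%, against 97.2 to 98.7% in the other unstressed libraries. In het control replicate 1 the 669 nt Ptbp3 transcript was at 8.06%, against 0 to 0.435% in the other unstressed libraries.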

How the results depend on the processing

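The Gpam share kept its direction under every alternative run and lost its call under 1, the share without transform, which left 0 transcripts and 0 genes called. The logit scale and 4 group means gave 2 genes each, adding Cep41 and Tsc1, and diffSpliceDGE gave 13 transcripts and, by its own gene-level test, 12 genes. By level, 4 group means called 1 transcript (Tsc1), limma-trend on log2(TPM + 1) called 1 (Gpam) and DESeq2 called 56. Leaving out 1 library at a time gave 0 to 1 calls by level (Ptprs, without het control replicate 3), 2 to 4 transcripts by share, and 1 to 2 genes by the p combined per gene (4 transcripts without wild-type stress replicate 1, with Erbb4 and Arhgap45), and 0 to 4 interaction calls by level and 0 to 4 by share. The difference in effective number of isoforms was 0.0231 to 0.0382 in these fits (exact permutation p 0.01 to 0.08, with 4 of 12 past the threshold), 0.0292 at a mean count of at least 200 (p = 0.06, exact permutation) and 0.0174 without the 2 libraries of lowest length slope (exact permutation p = 0.15). Without those 2 libraries, chosen after seeing the data, the difference in length slope was -0.0259 and that of the longest transcript's share -0.116 points; leaving out 1 library gave 0.0179 to 0.105 and 0.654 to 2.01 points. Genes with another leading transcript numbered 656 to 816 on leaving out 1 library. Shares with no call that changed sign were those of Gria2 (-1.11 to 2.43 points on leaving out 1 library) and Cntnap2 (-0.815 to 6.07, and -2.35 without both libraries). The cause was not tested. With the replicate block the counts were 0 by level, 2 transcripts and 1 gene by share and 0 interactions; in pairs the exact permutation p was 0.03125 for the effective number of isoforms, 0.469 for the length slope and 0.219 for the longest transcript. Deviations of same-numbered libraries correlated at -0.0471 to 0.393, over 0.1 in 7 of 18 pairs, and 8 of 12 libraries correlated best with their own number, and pairing was taken only where every pair is over 0.1, so the numbers were not used as pairs in the main tests. Of the transcripts tested by level, 29.6% were at 0 in at least 1 library.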
